A study of Mus musculus with 8 samples.

Results

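The genes described here encode the contractile apparatus of smooth muscle and its regulators. They were taken as a list of 34 genes, chosen by function with earlier results of these data known. The genes were matched by symbol to the array's probe sets, and 31 of them were measured among 12393 named genes. Ppp1r12b, Pde5a and Pgm5 are not analysed here. Transgenic FVB mice, which carry as a transgene an active allele of p110 beta (a subunit of the lipid kinase PI3-kinase), were compared at 20 weeks of age with wild type FVB mice (4 arrays in each group, numbered 1 to 4, all from ventral prostate). The labels call the transgenic tissue mouse prostatic intraepithelial neoplasia and the wild type tissue normal. The promoter that drives the transgene and the number of founder lines are not given in the labels, and no probe set with a single symbol was named for Pik3cb, so the transgene itself is not analysed here. The labels do not state that the 4 arrays of a group are 4 different animals, and p-values here reflect the spread among arrays, some of which may be technical.

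Smooth muscle forms a sheath around each prostatic duct and also the wall of blood vessels. It contracts when calcium and calmodulin activate myosin light chain kinase, whose phosphorylation of the light chain lets myosin pull on actin filaments that are anchored in dense bodies and at the cell membrane. Serum response factor binds a short sequence known as the CArG box and, with its muscle coactivator myocardin, switches on many of these genes. Whole tissue was measured. Fewer smooth muscle cells, less RNA per cell and a change in other cell types cannot be told apart in any value below.

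The regulatory sequences that the list is known for are shown first. The CArG box was searched in the 250 bases before each annotated start, as CCWWWWWWGG, where W is A or T. This pattern reads the same on both strands, and boxes that depart from it by any base were not counted. RefSeq promoters of the GRCm38.p6 assembly were used, in which 29 of the 34 genes had an entry. Actg2, Myh11, Myocd, Pdgfrb and Tagln had none and were not searched. The pattern was found in front of 5 of the 29, Myl9, Cnn2, Vcl, Ldb3 and Srf, against 1.62% of all 27025 genes in the same table. In the windows of 60 bases that follow, capitals mark the CArG box, and each strand is read in the direction of its gene.
Myl9 (chr2:156775278-156775337, plus strand): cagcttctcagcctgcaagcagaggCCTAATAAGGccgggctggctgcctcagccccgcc
Cnn2 (chr10:79988519-79988578, plus strand): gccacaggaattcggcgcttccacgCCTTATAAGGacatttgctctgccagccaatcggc
Vcl (chr14:20929148-20929207, plus strand): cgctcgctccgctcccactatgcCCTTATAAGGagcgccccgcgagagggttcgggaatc
Ldb3 (chr14:34588682-34588741, minus strand): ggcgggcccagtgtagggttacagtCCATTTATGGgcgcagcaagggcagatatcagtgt
Srf (chr17:46556210-46556269, minus strand): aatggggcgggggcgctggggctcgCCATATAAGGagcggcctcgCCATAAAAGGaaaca

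Srf held 2 boxes, which begin 82 and 62 bases before its start, and the box of Cnn2 begins 56 bases before its start. A further element of muscle promoters, the MCAT element bound by TEAD factors, was searched as CATTCC or GGAATG. It was found in front of 9 of the 29 genes, against 14.4% of all genes. Of these 9, Smtn, Mylk and Flna fell, Acta2, Lmod1, Cald1, Tpm1 and Vcl did not pass, and Ppp1r12b was not measured. The windows of the 3 genes that fell in transgenic prostates, and of Acta2, are given below with this element in capitals. No CArG box of the pattern searched was found in front of Smtn, Mylk, Flna or Acta2.
Smtn (chr11:3539482-3539541, minus strand): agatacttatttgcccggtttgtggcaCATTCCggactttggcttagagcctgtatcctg
Mylk (chr16:34784765-34784824, plus strand): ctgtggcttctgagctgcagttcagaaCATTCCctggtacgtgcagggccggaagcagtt
Flna (chrX:74246648-74246707, minus strand): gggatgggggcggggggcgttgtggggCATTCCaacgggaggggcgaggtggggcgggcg
Acta2 (chr19:34255487-34255546, minus strand): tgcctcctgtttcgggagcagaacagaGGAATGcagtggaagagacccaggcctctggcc

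Neither set of letters was found in the searched window of Pcp4, Tpm2 or Csrp1. A match of letters is a description of the sequence and does not show that a factor binds there.

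Values are log2 RMA values, in which a step of 1 is a doubling, and the highest of the 8 array medians was 5.51. A gene with a mean below the array medians is close to background, where changes are understated. Of 9 defining smooth muscle markers, 6 (Acta2, Actg2, Myh11, Cnn1, Smtn and Des) lay above every array median on all 8 arrays. Lmod1 crossed the array medians, and Synpo2 and Myocd had both group means below them.

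In transgenic prostates 7 of the 31 measured members fell and 0 rose in limma at an adjusted p under 0.05 taken across the whole array, and 24 missed it. They were Pcp4, Smtn, Csrp1, Cnn2, Tpm2, Mylk and Flna, with log2 differences from -1.20 to -0.55. Among all 12393 genes 4.98% were called lower and 5.99% higher, and the members' shares were 22.6% and 0. The median log2 difference was -0.25 over the members and -0.04 over all genes, and 29 of the 31 had a difference below 0, against 58.4% of all genes. At an unadjusted p under 0.05 there were 10 members lower and 0 higher, against 1504 lower and 1322 higher of all 12393 genes. For 9 members all transgenic arrays lay below all wild type arrays, and for 0 above, where 8.2% of all genes lay entirely below and 8.09% entirely above. At an adjusted p under 0.01, 2 members (Cnn2 and Pcp4) were called lower, against 2.09% of all genes.

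How many members fell depended on single arrays of both groups, and so did the share of all genes called lower. Omitting transgenic array 1, 2, 3 or 4 gave 5, 5, 6 and 5 members lower, against 5.28, 2.90, 3.05 and 3.06% of all genes. Leaving out wild type array 1 or 4 gave 10 and 8, against 5.59 and 4.95% of all genes. The share of all genes called lower was 3.85% without wild type array 2 and 3.20% without wild type array 3. Without wild type array 2, or without wild type array 3, 4 members fell (Pcp4, Smtn, Csrp1 and Cnn2), and Tpm2, Mylk and Flna missed the threshold. These 4 were called lower without any one of the 8 arrays. Smtn and Csrp1, 2 of the 4, were measured only by probe sets marked as shared between transcripts, so neither could be checked with such probe sets left out. The mark covers transcripts of a single gene and of several genes alike.

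**Figure D1:**
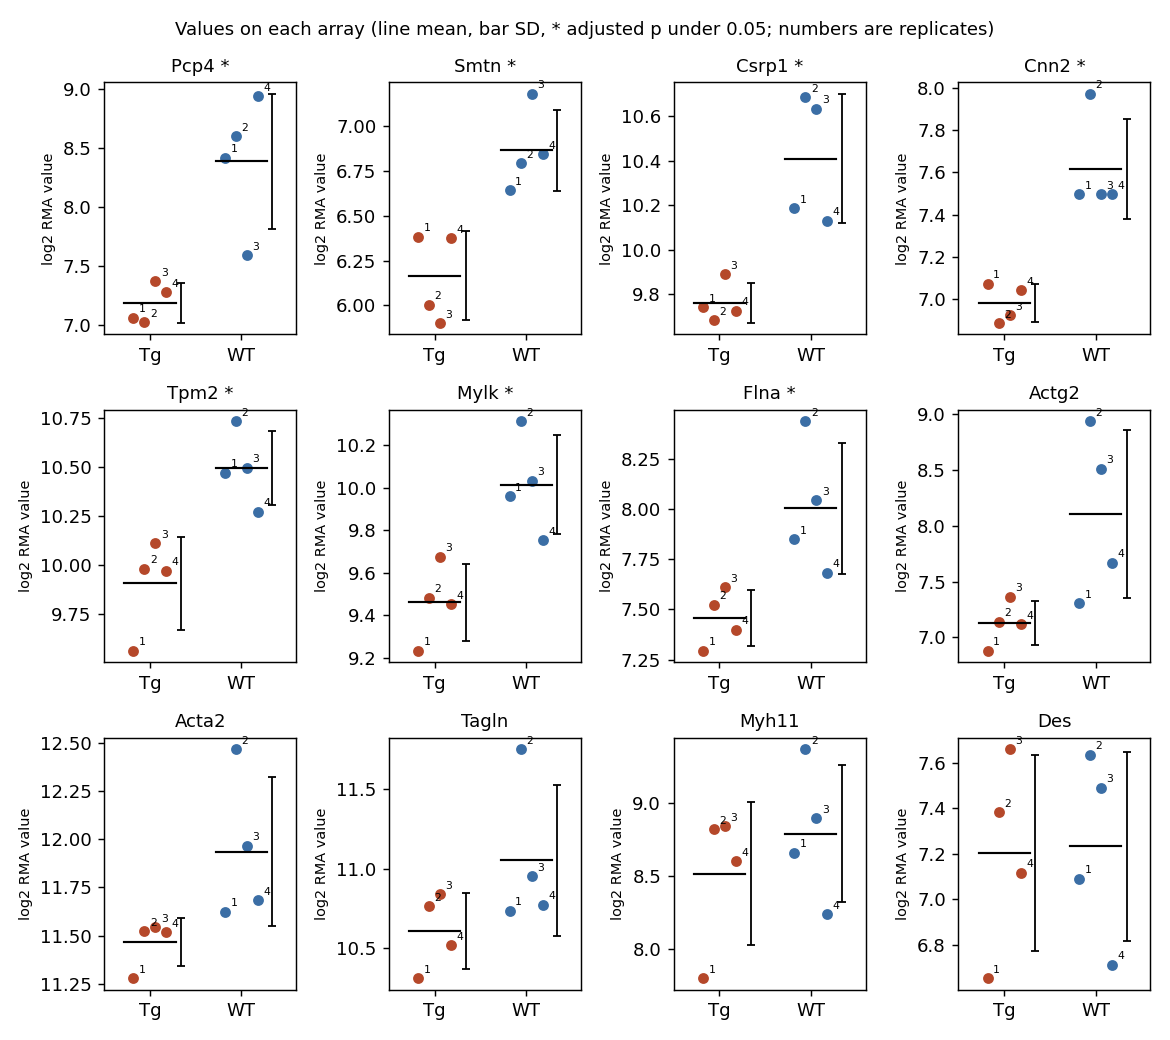
Log2 RMA values of 12 members on each array, with transgenic arrays (Tg) left of wild type arrays (WT); points carry the replicate number, lines are group means and bars are SDs. The groups do not overlap for Pcp4, Smtn, Csrp1, Cnn2, Tpm2, Mylk, Flna and Acta2, and wild type array 2 is highest of its group in most panels.

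Several genes of the filaments themselves fell. Among the 13 measured filament genes, 3 passed as lower (23.1%, against 4.98% of all genes) and 0 as higher. The other 10 missed the threshold, and the median log2 difference over the 13 was -0.39. Smtn encodes smoothelin, an actin-binding protein of contractile smooth muscle cells. It was at 6.38, 6.005, 5.90 and 6.38 on transgenic arrays 1 to 4, against 6.64, 6.79, 7.18 and 6.84 on wild type arrays 1 to 4. All transgenic arrays lay below all wild type arrays, and the log2 difference was -0.70 ± 0.15 (SE; limma adjusted p = 0.0113), a level 1.62-fold higher in wild type.

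The calponins bind actin and restrain its sliding over myosin, Cnn1 in smooth muscle and Cnn2 in many cell types. Cnn2 was at 7.07, 6.89, 6.92 and 7.04 on the transgenic arrays, against 7.50, 7.97, 7.50 and 7.50 on the wild type arrays. Its groups did not overlap and its log2 difference was -0.64 ± 0.12 (SE; limma adjusted p = 0.00721). Cnn1 was at 8.42, 8.45, 8.55 and 8.36 on the transgenic arrays, against 8.36, 9.24, 9.16 and 8.57 on the wild type arrays. Wild type array 1 of Cnn1 lay among the transgenic values, and the gene did not pass (log2 difference -0.39, 95% interval -0.78 to 0.01; limma adjusted p = 0.247). Without wild type array 1, Cnn1 passed (log2 difference -0.54, limma adjusted p = 0.0466). Whether the 2 calponins differ in their change was not tested.

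Tropomyosins lie along the actin filament and gate its contact with myosin. Tpm2 was at 9.56, 9.98, 10.11 and 9.97 on the transgenic arrays, against 10.47, 10.73, 10.49 and 10.27 on the wild type arrays, again with no overlap. Its log2 difference was -0.59 ± 0.14 (SE; limma adjusted p = 0.0198). That probe set is marked as shared between transcripts, and of the gene's other 3 probe sets, at -0.49, -0.37 and 0.04, none passed. Their mean values over all arrays were 8.51, 3.34 and 4.48, and those of 3.34 and 4.48 lie below every array median. With shared probe sets left out Tpm2 is represented by the probe set at 0.04, where a change could be missed. Tpm1 overlapped between groups, at 8.22, 9.13, 9.22 and 8.90 on the transgenic arrays and 8.87, 9.77, 9.12 and 8.42 on the wild type arrays (95% interval of the log2 difference -0.78 to 0.42).

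The smooth muscle actins were lower on average without passing. Actg2, the actin of visceral smooth muscle, was at 6.88, 7.14, 7.36 and 7.12 on the transgenic arrays, against 7.30, 8.93, 8.51 and 7.67 on the wild type arrays. Only wild type array 1 overlapped the transgenic values, and wild type arrays 2 and 3 stood more than 1 log2 unit above every transgenic array. Its log2 difference of -0.98 ± 0.29 (SE) was the second largest among the members, with a limma adjusted p of 0.0605, and it passed without wild type array 1 (adjusted p = 0.00894) or 4 (adjusted p = 0.0499). Acta2, the actin of vascular and ductal smooth muscle, was at 11.28, 11.52, 11.55 and 11.52 on the transgenic arrays, against 11.62, 12.47, 11.97 and 11.68 on the wild type arrays. Its groups did not overlap, yet the log2 difference of -0.47 ± 0.17 (SE) did not pass (limma adjusted p = 0.120). The actins are close in sequence, and the probe sets used for both genes are marked as shared between transcripts. The mark as used here does not separate transcripts of the same gene from those of other genes. Whether signal was split among the actins was not tested.

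Myosin and its partners showed wide spread in both groups. Myh11, the smooth muscle myosin heavy chain, was at 7.80, 8.82, 8.84 and 8.60 on the transgenic arrays, against 8.66, 9.37, 8.90 and 8.24 on the wild type arrays. Myl9, the regulatory light chain that the kinase phosphorylates, was at 8.03, 8.78, 8.98 and 8.52 on the transgenic arrays, against 8.68, 9.77, 9.04 and 8.33 on the wild type arrays. For both genes transgenic array 1 and wild type array 4 were the lowest of their groups and wild type array 2 the highest of all, so the groups overlapped. The 95% intervals of their log2 differences, -0.85 to 0.30 for Myh11 and -0.99 to 0.24 for Myl9, hold both 0 and a fall as large as that of Smtn.

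Tagln, which encodes transgelin, an actin-bundling protein, was at 10.31, 10.76, 10.84 and 10.52 on the transgenic arrays, against 10.73, 11.75, 10.95 and 10.77 on the wild type arrays. Des, the muscle intermediate filament desmin, was at 6.65, 7.38, 7.66 and 7.12 on the transgenic arrays, against 7.09, 7.64, 7.49 and 6.71 on the wild type arrays. Group means of Des were nearly equal, 7.20 ± 0.43 in transgenic and 7.23 ± 0.42 in wild type samples (SD, n = 4 each), while the interval of its difference ran from -0.54 to 0.48. Cald1, caldesmon, had no overlap between groups and a log2 difference of -0.31 that did not pass (limma adjusted p = 0.147). Lmod1, a leiomodin that nucleates actin filaments, was at -0.29 (95% interval -0.63 to 0.06).

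**Figure D2:**
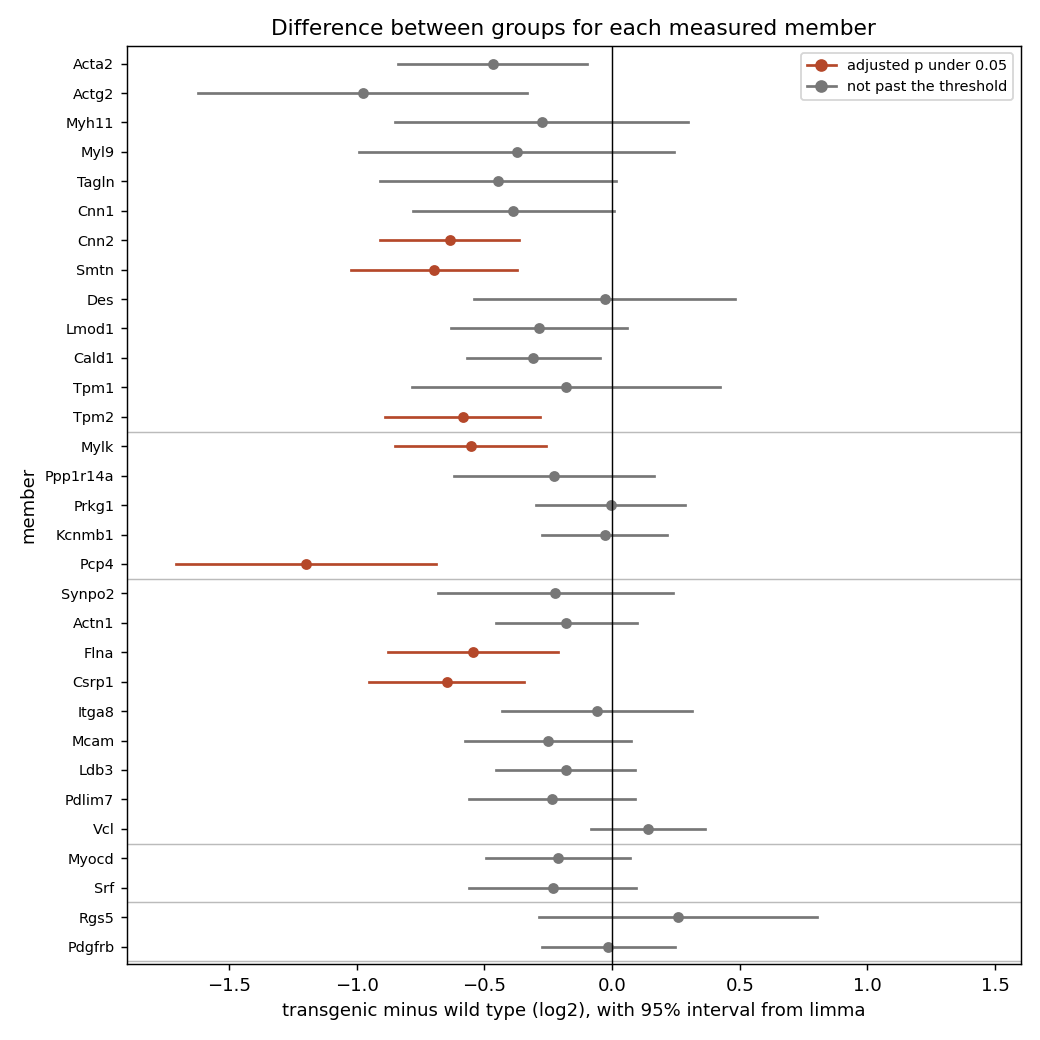
Difference of transgenic minus wild type (log2) for the 31 measured members, ordered by role, with the 95% interval from limma. The 7 coloured members passed the threshold, all below 0; Vcl and Rgs5 were the members with a difference above 0.

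Among genes that control contraction, 2 of 5 measured fell, 3 did not pass and 0 rose. Pcp4 encodes a small protein that binds calmodulin. It was at 7.06, 7.03, 7.37 and 7.28 on the transgenic arrays, against 8.42, 8.60, 7.59 and 8.94 on the wild type arrays. Wild type array 3 was low but still above every transgenic array. The log2 difference of -1.20 ± 0.23 (SE; limma adjusted p = 0.00681) was the largest of the 31, a level 2.30-fold higher in wild type, and it lay between -1.47 and -0.98 under all alternatives tried.

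Mylk encodes myosin light chain kinase, the enzyme that starts contraction. It was at 9.23, 9.48, 9.68 and 9.45 on the transgenic arrays, against 9.96, 10.31, 10.03 and 9.75 on the wild type arrays. The groups did not overlap and the log2 difference was -0.55 ± 0.14 (SE; limma adjusted p = 0.0233). Its other 2 probe sets were at -0.53 and -0.62, and neither passed (limma adjusted p = 0.0531 and 0.0681). The call was lost without any one of 5 arrays, transgenic 1, 2 and 4 and wild type 2 and 3, with adjusted p up to 0.0669 over leaving out each array.

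Ppp1r14a, an inhibitor of myosin phosphatase, Prkg1, the cGMP-dependent kinase of relaxation, and Kcnmb1, a subunit of the calcium-activated potassium channel, had both group means below every array median. Their log2 differences were -0.23, -0.00 and -0.03. At these levels a change could be missed.

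Genes of the dense bodies and adhesions gave 2 falls among 9 measured (22.2%, against 4.98% of all genes), with 7 not passing and 0 higher. Csrp1 encodes a LIM protein of actin bundles. It was at 9.74, 9.68, 9.89 and 9.73 on the transgenic arrays, against 10.19, 10.69, 10.63 and 10.13 on the wild type arrays. Transgenic values spanned little and lay below all wild type values, where arrays 2 and 3 were the high pair. The log2 difference was -0.65 ± 0.14 (SE; limma adjusted p = 0.0117), and a dimmer probe set of the gene was at -0.44 without passing. With the mean of both probe sets Csrp1 missed the threshold (adjusted p = 0.0510).

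Flna encodes filamin A, which crosslinks actin and ties it to integrins in most cell types. It was at 7.30, 7.52, 7.61 and 7.40 on the transgenic arrays, against 7.85, 8.44, 8.04 and 7.68 on the wild type arrays. The groups did not overlap, and the log2 difference was -0.55 ± 0.15 (SE; limma adjusted p = 0.0448). Of the 7 calls it was the one nearest the threshold, and it held when wild type array 1 or 4 was left out and was lost with each of the other 6 (adjusted p up to 0.118).

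Vcl, vinculin, which links actin to integrin adhesions, was at 9.85, 9.74, 9.75 and 9.83 on the transgenic arrays, against 9.53, 9.80, 9.76 and 9.50 on the wild type arrays. The ranges overlapped, and the 95% interval of its log2 difference, -0.08 to 0.37, lies wholly above those of Smtn and Pcp4, though the difference between genes was not tested. Actn1, alpha-actinin, was at -0.18 (95% interval -0.45 to 0.10). Pdlim7, a PDZ and LIM domain protein, was at -0.24 with its brighter probe set, and its other probe set, at 5.56, 5.41, 5.28 and 5.49 on the transgenic arrays and 5.89, 6.08, 6.02 and 5.70 on the wild type arrays, passed at -0.49 (limma adjusted p = 0.0177). Synpo2, Itga8, Mcam and Ldb3 had both group means below every array median, with log2 differences from -0.25 to -0.06.

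The transcription factor Srf was at 6.27, 6.50, 6.47 and 6.69 on the transgenic arrays, against 6.75, 6.9997, 6.81 and 6.31 on the wild type arrays. Wild type array 4 fell among the transgenic values, and the log2 difference of -0.23 did not pass (95% interval -0.56 to 0.09). Myocd, encoding its coactivator myocardin, was at 4.87, 4.82, 4.80 and 4.97 on the transgenic arrays, against 4.75, 4.97, 5.26 and 5.31 on the wild type arrays, near background on all 8 (95% interval of the log2 difference -0.49 to 0.07). Of the 5 genes with a CArG box printed above, Cnn2 fell and Myl9, Vcl, Ldb3 and Srf did not pass.

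Markers of pericytes, the contractile cells of capillaries, did not pass. Rgs5, a regulator of G protein signalling, was at 5.43, 6.11, 6.25 and 6.27 on the transgenic arrays, against 5.16, 6.41, 5.70 and 5.77 on the wild type arrays. Its ranges overlapped, with a 95% interval of the log2 difference from -0.29 to 0.80. Pdgfrb, the receptor that recruits pericytes, averaged 3.88 ± 0.04 in transgenic and 3.89 ± 0.23 in wild type samples (SD, n = 4 each), below every array median. Of 7 measured genes in a further list of mural cell markers, Anpep, an aminopeptidase that epithelia also carry, rose by 0.61 (limma adjusted p = 0.0151), and the other 6 missed the threshold.

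The members had 57 probe sets in all, and 17 genes had more than 1. Of the 26 probe sets not used above, 19 had the sign of the one used. Pdlim7 gave the 1 of these 26 that passed as lower, and 0 passed as higher, where 4.36% of all 22626 probe sets were called lower.

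**Figure D3:**
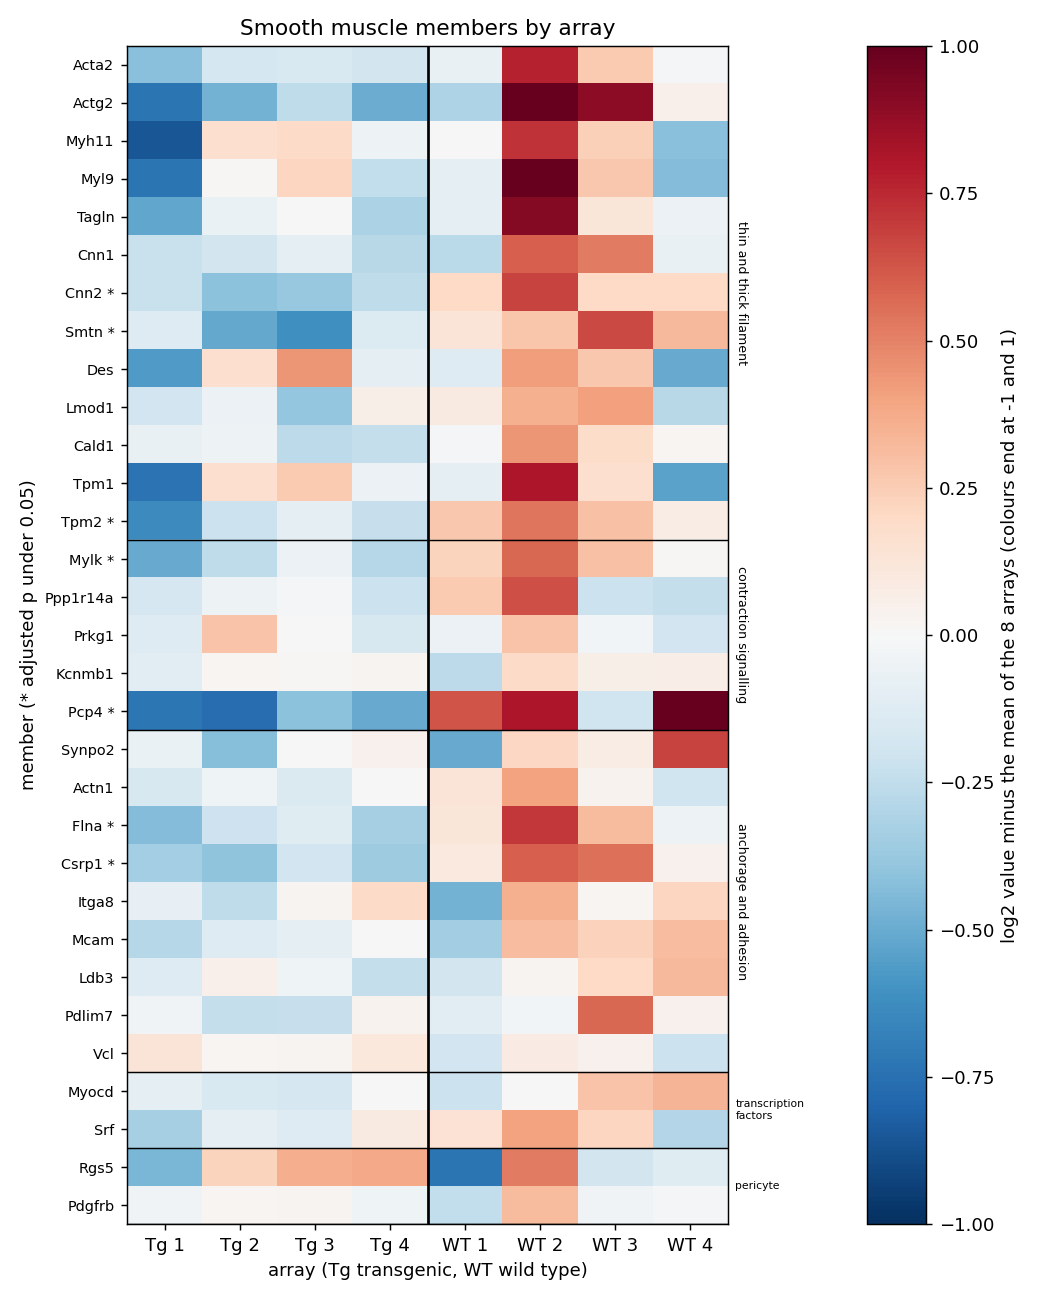
Each member's log2 value minus its mean over the 8 arrays, by array, with transgenic arrays (Tg) left of wild type arrays (WT) and members grouped by role; an asterisk marks an adjusted p under 0.05. Wild type array 2 is red for most members, and transgenic array 1 is blue for most filament genes.

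Wild type samples varied more than transgenic samples. The SD was larger in wild type for 26 of the 31 members (83.9%), against 64.1% of all genes. The median SD of the members was 0.17 in transgenic and 0.31 in wild type samples, and over all genes it was 0.14 in transgenic and 0.18 in wild type samples. The difference in spread was not tested.

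Single arrays carried much of this variation. Wild type array 2 held the highest wild type value of 23 members, where it was highest for 16.2% of all genes. Wild type array 1 was lowest for 16 members and wild type array 4 for 14, against 37.4% and 27.8% of all genes. Among transgenic arrays, array 1 was lowest for 15 members (26.7% of all genes) and array 3 highest for 15 (19.7% of all genes). With each gene centred on its own mean, the members averaged -0.32, -0.13, -0.07 and -0.12 on the transgenic arrays, against -0.07, 0.49, 0.22 and 0.01 on the wild type arrays. Transgenic arrays 2 to 4 and wild type arrays 1 and 4 thus lay close together, and wild type arrays 2 and 3 stood above them.

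Some markers of other cell types also differed between groups, and within the wild type group the fibroblast markers followed the order of the members at its top and bottom. Of 12 fibroblast markers 2 fell, Dcn by 1.15 and Pdgfra by 0.74 (limma adjusted p = 0.000224 and 0.0414), and 10 did not pass. That is 16.7% called lower, against 4.98% of all genes. All 12 had a difference below 0, and 6 had an unadjusted limma p under 0.05. The median log2 difference was -0.49 over the fibroblast markers and -0.25 over the members. The mean log2 value of the fibroblast markers ran from 6.69 to 6.95 in transgenic samples and from 6.77 to 8.03 in wild type samples. Wild type array 2 was the highest and wild type array 1 the lowest of its group, as for the members. Of 7 basal epithelial markers 4 fell (Krt15, Krt5, Col17a1 and Trp63), or 57.1%, against 4.98% of all genes. The mean log2 value of the basal list ran from 5.09 to 5.28 in transgenic and from 5.64 to 5.88 in wild type samples. Of 8 luminal epithelial markers 5 rose (Elf3, Cd24a, Cdh1, Epcam and Krt8), or 62.5%, against 5.99% of all genes. The mean log2 value of the luminal list ran from 10.52 to 10.60 in transgenic and from 9.73 to 10.07 in wild type samples. Centred in the same way as the members, the basal list was at -0.27, -0.38, -0.21 and -0.40 on the transgenic arrays, against 0.15, 0.37, 0.34 and 0.40 on the wild type arrays. Within the wild type group the basal list was lowest on array 1, as were the members. It was highest on wild type array 4, at 0.40 against 0.37 on wild type array 2, where the members were highest. Within the transgenic group the basal list was lowest on array 4, at -0.40 against -0.38 on array 2, and the members were lowest on array 1. The luminal list was at 0.30, 0.38, 0.34 and 0.35 on the transgenic arrays, against -0.34, -0.15, -0.39 and -0.49 on the wild type arrays. The part of fibroblast, basal or luminal cell content in the members' falls was not tested.

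Markers of endothelium, skeletal and cardiac muscle, nerve and seminal vesicle did not pass in limma. Of 10 endothelial markers 0 passed, and at an unadjusted p under 0.05 there was 1, Egfl7 (log2 difference -0.30, limma adjusted p = 0.184). Of 12 skeletal muscle markers 0 passed and 1, Acta1, had an unadjusted p under 0.05 (log2 difference -0.62, limma adjusted p = 0.0912). The mean log2 value of the skeletal list ran from 4.63 to 4.69 in transgenic and from 4.80 to 4.93 in wild type samples. In that list Myh4, Mylpf and Tnnt3 were below 4 on every array, while other members were not. Myh1, a skeletal myosin heavy chain, was at 4.08, 3.77, 3.88 and 3.74 on the transgenic arrays, against 5.94, 3.67, 4.92 and 3.91 on the wild type arrays, so wild type arrays 1 and 3 stood out. Tnnc2, a troponin C, ran from 5.41 to 6.87 in transgenic and from 5.88 to 7.58 in wild type samples, and Acta1, the skeletal actin, from 7.34 to 7.86 in transgenic and from 7.61 to 8.70 in wild type samples. Apart from Acta1, these genes were named after their values were seen, and the part of skeletal muscle in the members' values was not tested. Of 6 cardiac markers 0 passed and 1, Tnni3, had an unadjusted p under 0.05. Of 4 nerve and glia markers and 6 seminal vesicle markers 0 passed and 0 had an unadjusted p under 0.05; S100b and Svs5 had the smallest p of the 2 lists, with log2 differences of -0.10 and -0.23.

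**Figure D4:**
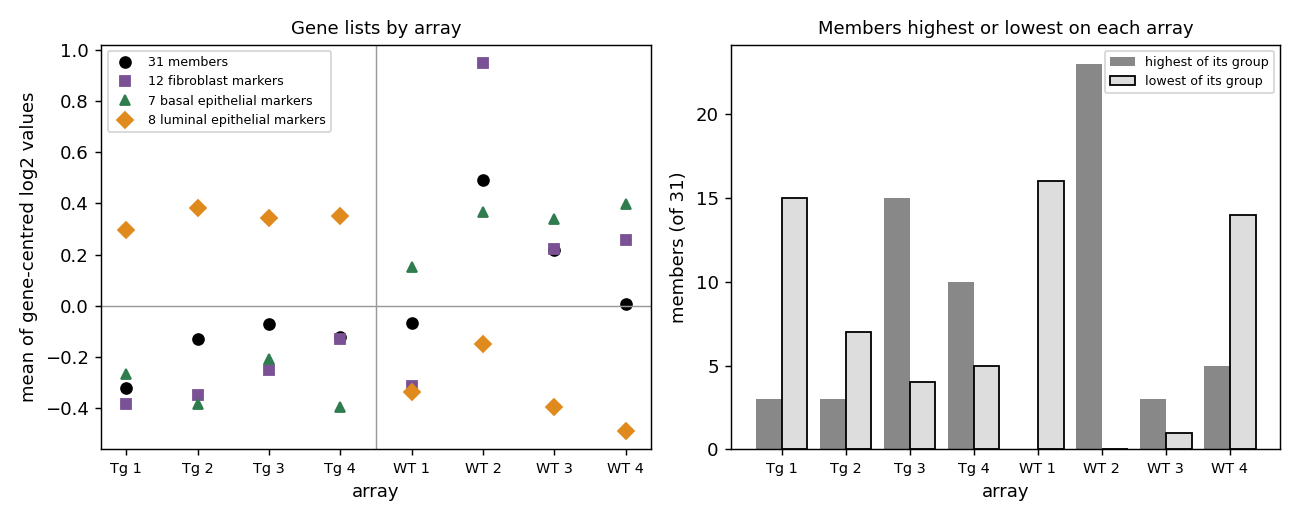
The left panel gives the mean of gene-centred log2 values on each array for the 31 members and 3 marker lists, and the right panel counts for how many of the 31 members an array was the highest (dark) or lowest (light) of its group; transgenic arrays (Tg) are left of wild type arrays (WT). Members and fibroblast markers are both highest on wild type array 2, which holds the highest wild type value of 23 members.

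Other genes of the contraction pathway and of the muscle cytoskeleton were taken as 74 genes outside the list. At the adjusted threshold they were called at close to the rate of all genes. Of the 59 measured, 4 passed as lower and 4 as higher, 51 missed the threshold, and the median log2 difference was -0.07. That is 6.78% lower and 6.78% higher, against 4.98% and 5.99% of all genes. At an unadjusted limma p under 0.05, 14 of the 59 were lower and 8 higher, against 1504 lower and 1322 higher of all 12393 genes. All transgenic arrays lay below all wild type arrays for 9 of the 59 (15.3%), and above them for 5. Of all genes, 8.2% lay entirely below and 8.09% entirely above. Atp2a2, the pump that returns calcium to the sarcoplasmic reticulum, was at 10.25, 9.95, 9.96 and 9.97 on the transgenic arrays, against 10.63, 10.64, 10.49 and 10.42 on the wild type arrays, with no overlap (log2 difference -0.51 ± 0.11, SE; limma adjusted p = 0.00933). Tns1, Zyx and Tln1, which encode the adhesion proteins tensin 1, zyxin and talin 1, fell by 0.67, 0.58 and 0.42 on the log2 scale, and for each all transgenic arrays lay below all wild type arrays.

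Those that rose were Svil, Prkca, Myl12b and Kcnma1. Svil encodes supervillin, a membrane-associated actin-binding protein. It was at 7.77, 8.41, 8.34 and 8.22 on the transgenic arrays, against 7.49, 7.79, 7.34 and 7.20 on the wild type arrays. Transgenic array 1 overlapped wild type array 2, and the log2 difference was 0.73 ± 0.16 (SE; limma adjusted p = 0.0148). Prkca, protein kinase C alpha, rose by 0.63, Myl12b, a regulatory light chain of nonmuscle myosin, by 0.47, and Kcnma1, the pore subunit of the channel that Kcnmb1 modulates, by 0.38. The counts changed with single arrays, as did the shares of all genes. Without transgenic array 2, 0 of the 59 were called higher and 2 lower, against 3.99% and 2.90% of all genes. Without transgenic array 1 or 3 or wild type array 2 or 3, 2 were called higher. The shares of all genes called higher were then 5.94, 4.46, 5.01 and 4.26%. Leaving out wild type array 1 gave 8 lower and leaving out wild type array 4 gave 7 lower, against 5.59 and 4.95% of all genes. Without transgenic array 3 or wild type array 3, 2 of the 59 were called lower, against 3.05 and 3.20% of all genes.

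As a sign of RNA quality, the log2 difference between the 3 prime and 5 prime control probe sets of beta actin and Gapdh was 1.12 ± 0.19 in transgenic and 1.47 ± 0.09 in wild type samples (SD, n = 4 each). Its group difference of -0.34 had an exact two-sided permutation p of 0.0571 over 70 assignments, where the smallest p possible is 0.0286. Wild type array 2, the array with the highest values of most members, had the lowest value of its group at 1.34, against 1.48, 1.49 and 1.56 on wild type arrays 1, 3 and 4. The part of RNA quality in the members' values was not tested.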

How the data were processed

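Total RNA was purified with Trizol and a further column step, labelled with biotin and hybridised to Affymetrix arrays, per the labels' protocols. The deposited log2 values are RMA values of the authors, a method (no version stated) named in the submitters' processing notes. RMA normalizes between arrays, so a change shared by all transcripts would be removed. The number of arrays limits the precision.

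Of 22690 probe sets, 64 controls were left out. Of the 22626 tested, 20380 had 1 symbol in the platform annotation, 691 several and 1555 none. Symbols were updated by gene identifier through RefSeq (GRCm38.p6), used for names and promoters only. Each gene was represented by its brightest probe set with 1 symbol. The group difference was tested for every probe set in limma (version 3.58.1, R 4.3.3) by lmFit followed by eBayes, p-values were adjusted by Benjamini-Hochberg across the 22626, and the threshold was 0.05. The fit was tested on simulated data. No 2 arrays were copies (highest correlation 0.996).

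The members and lists were chosen with earlier results of these data known. All measured members are named. Of the other lists, the genes past the threshold are named (up to 6 a list by size of change), or the gene with the smallest p where none passed. Promoter windows are printed only where a searched element was found.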

Additional observations from a re-analysis of the deposited data

Results flagged for a closer look

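Over the 31 members in 2 groups each, 62 sets of 4 arrays were examined for a single array far from the other 3, and 4 were found; chance flags about 1 in 20 such sets. Acta2 was at 11.28 on transgenic array 1, against 11.52 to 11.55 on the other transgenic arrays. Kcnmb1 was also lowest there, at 4.70 against 4.83 to 4.84, close to background. Cnn2 was at 7.97 on wild type array 2, against 7.50 on each of the other wild type arrays. Mcam, which encodes an adhesion molecule of vessel walls, was at 4.48 on wild type array 1, against 5.05 to 5.13 on the others, and without that array it passed as lower in transgenic samples (limma adjusted p = 0.0269).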

How the results depend on the processing

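Over the 31 members and the alternatives tried, 491 values kept their direction and side of the threshold or changed sign without a call, 14 lost their call, 10 gained one and 1 reversed. The count of members called lower was 7 under quantile and cyclic loess normalization, a mean-variance trend with robust prior and array spread (the SD over its probe sets) as a covariate, the last chosen after seeing the data. It was 8 with the dimmest 40% of probe sets left out, where 24 members remained, 6 with each gene averaged over its probe sets, 11 with array weights, 4 with shared probe sets left out (27 members measured, without Smtn and Csrp1) and 2 at a threshold of 0.01. The share of all genes called lower was 8.62% with array weights, 7.66% without the dim probe sets and 4.67% without the shared ones. Leaving out each array gave 4 to 10 members lower, where 2.90% to 5.59% of all genes were called lower. Under every alternative run 0 members were called higher. With shared probe sets left out Tpm2 was at 0.037 (limma adjusted p = 0.905), read from a probe set close to background (mean 4.48). This was the 1 value that reversed. For the other smooth muscle genes, array weights gave 14 lower and 7 higher, where 8.62% and 8.77% of all genes were called. A threshold of 0.01 gave 2 and 0 (2.09% and 3.29% of all genes). Shared probe sets left out gave 3 and 2 (4.67% and 5.26% of all genes), and leaving out each array gave 2 to 8 lower and 0 to 5 higher. The causes of these changes were not tested. The 3 prime minus 5 prime difference lay between -0.44 and -0.29 over leaving out each array, and its exact permutation p was 0.0286 without transgenic array 4.

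Deviations from group means had correlations of -0.31, 0.24, -0.20 and 0.33 between same-numbered arrays of the 2 groups. Between differently numbered arrays they reached 0.47 and -0.46. With so few arrays these values cannot decide whether the numbers pair the arrays. With the replicate number as a block, 8 members were called lower, the 7 and Actg2, and 2 of the other smooth muscle genes were called lower and 2 higher. Among all genes, 3.92% were then called lower and 4.83% higher. Array number and signal near background limit what could be detected: 9 members had both group means below every array median.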
